A study of Mus with 5 samples.

Results

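The 6 genes described here encode the myosin heavy and light chains of heart muscle: *Myh6*, *Myh7*, *Myl2*, *Myl3*, *Myl4* and *Myl7*. They were taken by their Ensembl identifiers, with earlier results of these data known, and all 6 were found among the 12857 genes with values. RNA came from E14.5 mouse hearts with the atria removed, leaving ventricles and valves. In the 3 transgenic pools (Nkx2.5Cre/+;Bmp2tg/+), a Cre recombinase under the control of *Nkx2.5*, a gene of the heart progenitors and myocardium, cuts out a stop cassette. A CAG promoter in *Rosa26* then drives *Bmp2* together with eGFP. The 2 control pools are labelled only WT, so an effect of the *Nkx2.5* Cre allele and one of the *Bmp2* transgene cannot be told apart. In the cross of the study's survival counts, embryos without the transgene carried the Cre allele. Whether the WT pools came from that cross is not stated. Each pool held RNA of 4 embryos, so differences between single hearts are averaged within it. The study left out 1 further WT pool because it clustered apart from the other WT pools, and that pool was not analysed here.

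Myosin is the motor of the thick filament. Each molecule has a pair of heavy chains, which hydrolyse ATP and pull on actin, and each heavy chain carries an essential and a regulatory light chain on its lever arm. The chambers of the mouse heart use different genes for each of these places. *Myh7* (β-myosin heavy chain), *Myl2* (regulatory light chain MLC2v) and *Myl3* (essential light chain MLC1v) are the forms of the fetal ventricle. *Myh6* (α-myosin heavy chain), *Myl7* (regulatory light chain MLC2a) and *Myl4* (essential light chain MLC1a) are the forms typical of the atria, although early ventricles transcribe them as well and lose them as they mature, and *Myh6* becomes the main ventricular heavy chain after birth.

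Of the 6 genes, only the atrial-type regulatory light chain *Myl7* passed the test. It rose in the transgenic hearts by 88.3% in the mean, while the other atrial-type chains *Myl4* and *Myh6* differed by 6.80% and -1.14%. The ventricular light chains *Myl2* and *Myl3* were higher by 14.2% and 11.4%, without passing the test, and the ventricular heavy chain *Myh7* differed by -0.851%. Thus 1 of the 3 atrial-type chains and 0 of the 3 ventricular chains passed. Over all genes, 2.82% were called at an adjusted p of 0.05 with 1.22% higher (157 genes) and 1.59% lower (205 genes) in transgenic hearts. With libraries rescaled to the same total, 125 were called higher and 251 lower.

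Values are read counts per 1000000 reads (CPM) of a library size scaled by the authors. They are not divided by transcript length, so levels of different genes are not compared. Sums, shares and ratios across genes are therefore of reads, not of molecules. Genotypes were compared as log2(CPM + 0.5) with limma, and Benjamini-Hochberg adjustment was over all 12857 genes. The variance of each gene is drawn by limma toward that of genes at a like level. Its standard errors and confidence intervals therefore do not measure the spread between a gene's own pools alone. Over the 12857 genes the libraries held 7427905 to 10564780 reads, as recovered from the values, and the members rested on 2785 to 162049 reads per pool. In these bulk samples, a change in the number of cardiomyocytes and a change in transcript per cell cannot be told apart. *Bmp2*, the gene that the transgene carries, was at 23.0, 27.1 and 23.3 CPM in transgenic pools 1, 2 and 3 and at 14.1 and 10.2 CPM in WT pools 1 and 2 (log2 fold change 0.99, limma adjusted p = 0.000712). Reads of the endogenous gene and of the transgene were not told apart in these values.

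*Myl7* (ENSMUSG00000020469) lies on chromosome 11 of GRCm38 (5896637 to 5898782). It was at 653.3, 869 and 617 CPM in transgenic pools 1, 2 and 3, and at 384 and 373 CPM in WT pools 1 and 2. Behind these values were 6831, 8098 and 4930 transgenic reads and 3634 and 2785 WT reads. Every transgenic pool was well above both WT pools, and pool 2 stood above the other transgenic pools. The mean was 713 ± 137 CPM (SD, n = 3) for the transgenic genotype and 379 ± 7.71 CPM (SD, n = 2) for WT. The log2 fold change was 0.90 (standard error 0.10, 95% confidence interval 0.68 to 1.11, limma adjusted p = 0.000166), and 31 called genes, *Myl7* included, had one at least as high. This standard error and interval rest on the variance of other genes as well as on the spread of the *Myl7* pools. Without transgenic pool 2 the log2 fold change was 0.74, and *Myl7* was called with each of the 5 pools left out in turn (limma adjusted p from 4.66e-07 to 0.0343). The call was lost when limma was run with 1 variance prior for all expression levels (adjusted p = 0.152), a setting (no variance trend) that left 10 calls among all genes.

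*Myl2* (ENSMUSG00000013936), the ventricular counterpart of *Myl7*, lies on chromosome 5 (122092724 to 122113473). It read 5321, 5900 and 5376 CPM (transgenic pools 1 to 3) and 4812 and 4876 CPM (WT pools 1 and 2). The groups did not overlap, and pool 2 was again the highest. The mean was 5532 ± 319.7 CPM (SD, n = 3) against 4844 ± 45.3 CPM (SD, n = 2), a log2 difference of 0.19 (95% confidence interval 0.02 to 0.36, limma adjusted p = 0.223). *Myl2* was called with quantile normalization (limma adjusted p = 0.016) and with DESeq2 on the recovered reads (adjusted p = 0.0281), but in none of the other 10 settings that used all pools (adjusted p up to 0.341).

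The essential light chains hold the lever arm of the myosin head. *Myl3* (ENSMUSG00000059741), the ventricular form on chromosome 9 (110763678 to 110769802), read 1923, 2044 and 1795 CPM (transgenic pools 1 to 3) and 1739 and 1709 CPM (WT pools 1 and 2). Its groups did not overlap, although transgenic pool 3 came close to WT pool 1. The mean was 1921 ± 125 CPM (SD, n = 3) against 1724 ± 20.7 CPM (SD, n = 2), a log2 difference of 0.15 (95% confidence interval 0.01 to 0.30, limma adjusted p = 0.246). *Myl4* (ENSMUSG00000061086), the atrial-type form on chromosome 11 (104546017 to 104587215), read 1344, 1422 and 1281 CPM (transgenic pools 1 to 3) and 1240.1 and 1286 CPM (WT pools 1 and 2). Here the groups overlapped, since transgenic pool 3 lay just below WT pool 2. The mean was 1349 ± 70.8 CPM (SD, n = 3) against 1263 ± 32.2 CPM (SD, n = 2), a log2 difference of 0.09 (95% confidence interval -0.04 to 0.23, limma adjusted p = 0.46).

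The heavy chain genes are neighbours on chromosome 14 (*Myh6*, ENSMUSG00000040752, at 54941921 to 54968017, and *Myh7*, ENSMUSG00000053093, at 54970684 to 54994626), with 2666 bases between them in the RefSeq annotation. *Myh7* read 15497, 14789 and 14000.4 CPM (transgenic pools 1 to 3) and 14972 and 14805 CPM (WT pools 1 and 2). Both WT pools lay inside the transgenic range. The mean was 14762 ± 749 CPM (SD, n = 3) against 14889 ± 118 CPM (SD, n = 2), a log2 difference of -0.01 (95% confidence interval -0.23 to 0.20, limma adjusted p = 0.964). *Myh6* read 3939, 4241 and 3264 CPM (transgenic pools 1 to 3) and 3779 and 3939 CPM (WT pools 1 and 2). Again the WT pools lay inside the transgenic range, with pool 3 below and pool 2 above them. The mean was 3815 ± 499.9 CPM (SD, n = 3) against 3859 ± 113 CPM (SD, n = 2), a log2 difference of -0.02 (95% confidence interval -0.23 to 0.18, limma adjusted p = 0.925). Put as transgenic over WT ratios, these intervals ran from 0.853 to 1.15 for *Myh7* and from 0.855 to 1.13 for *Myh6*.

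**Figure D1:**
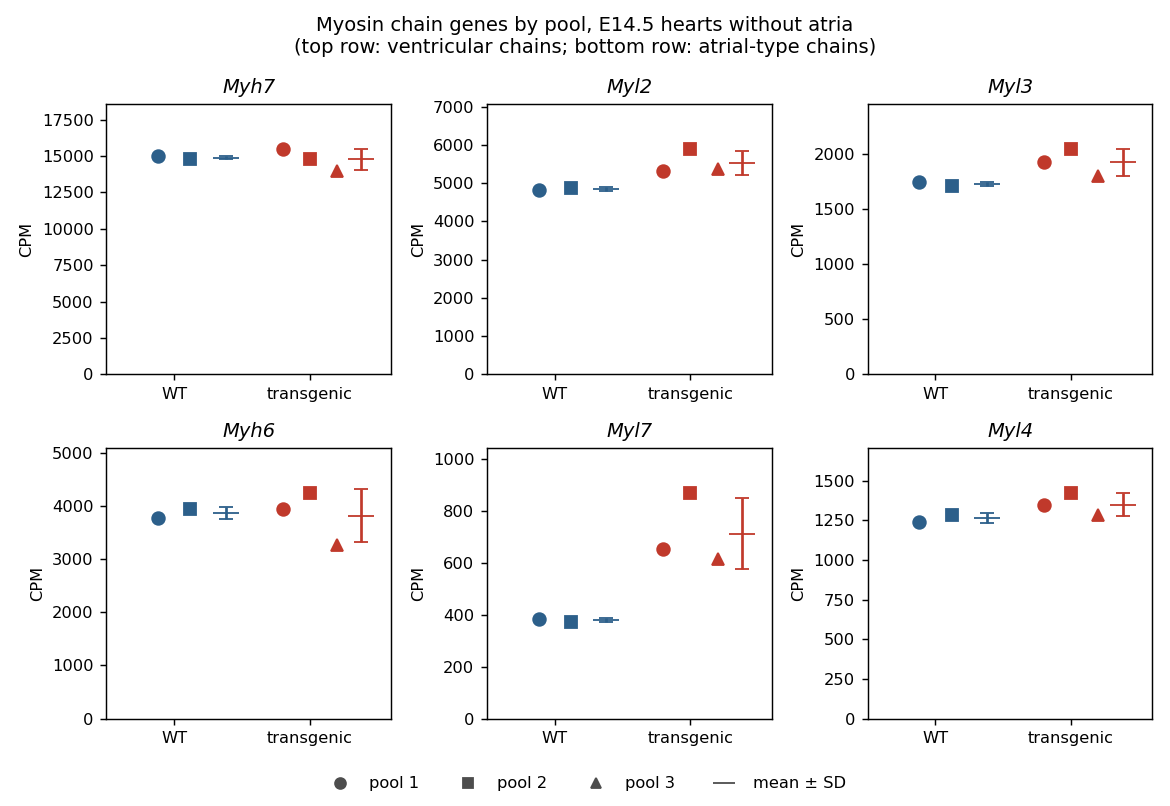
CPM of each myosin chain gene (vertical axes, starting at 0) in the 2 WT pools (blue) and the 3 transgenic pools (red), with the mean and SD beside them. The transgenic pools of *Myl7* sit between 617 and 869 CPM, far above the WT pools at 373 and 384 CPM, whereas the pools of *Myh6*, *Myh7* and *Myl4* overlap.

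The plot of pools against chains brings out how the transgenic pools varied. Transgenic pool 2 was the highest transgenic pool for 5 of the 6 genes, all but *Myh7*, and transgenic pool 3 was the lowest for 5 of the 6, all but *Myl2*. Over all genes, pool 2 was the highest of the 3 in 34.0% and pool 3 the lowest in 34.3%. For *Myl7* the transgenic pools stood 72.5%, 129.6% and 62.8% above the WT mean, and for *Myh6* they stood at 2.08%, 9.90% and -15.4% relative to it. The coefficient of variation between transgenic pools was 19.2% for *Myl7* and 13.1% for *Myh6*, and lay between 5.07% and 6.49% for the other chains. Between the WT pools it was 0.794% to 2.93%, with the WT pool that clustered apart already left out by the study. Counting error was small beside this, since the SD between transgenic pools was 5.84 (*Myl4*) to 24.6 (*Myh6*) times the SD that read counts alone give.

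**Figure D2:**
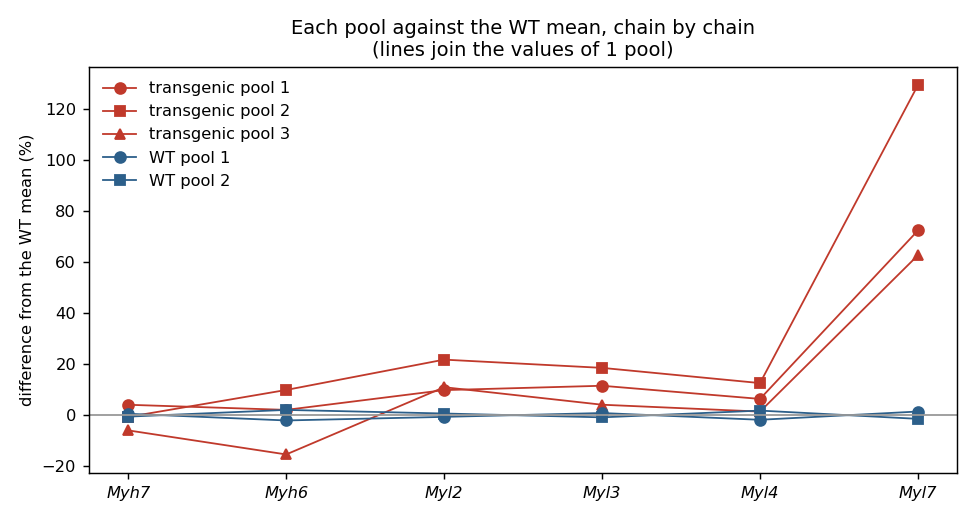
Percentage difference of each pool from the WT mean (vertical axis) for each chain (horizontal axis), with a line joining the values of a pool. The transgenic pools (red) stand 62.8% to 129.6% above the WT mean at *Myl7*, and between -15.4% and 21.8% from it at the other genes.

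Summed over the 6 genes, myosin chains took 2.65% to 2.89% of all transgenic reads and 2.71% to 2.72% of all WT reads, and the groups overlapped. The sum of both heavy chains was 18577 ± 1154 CPM (SD, n = 3) in transgenic hearts and 18748 ± 5.26 CPM (SD, n = 2) in WT hearts. The sum of the 4 light chains read 9241, 10235.5 and 9068 CPM (transgenic pools 1 to 3) and 8175 and 8244 CPM (WT pools 1 and 2), so that all transgenic pools were higher. Among the single genes, the transgenic pools lay above both WT pools for 3 of the 6 (*Myl2*, *Myl3* and *Myl7*) and below for 0. Over all genes, they lay above in 17.7% and above or below in 35.7%. The median log2 fold change was 0.12 over the 6 chains and 0.00452 over all genes. Without regard to sign, the medians were close, at 0.124 over the 6 chains and 0.104 over all genes.

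**Figure D3:**
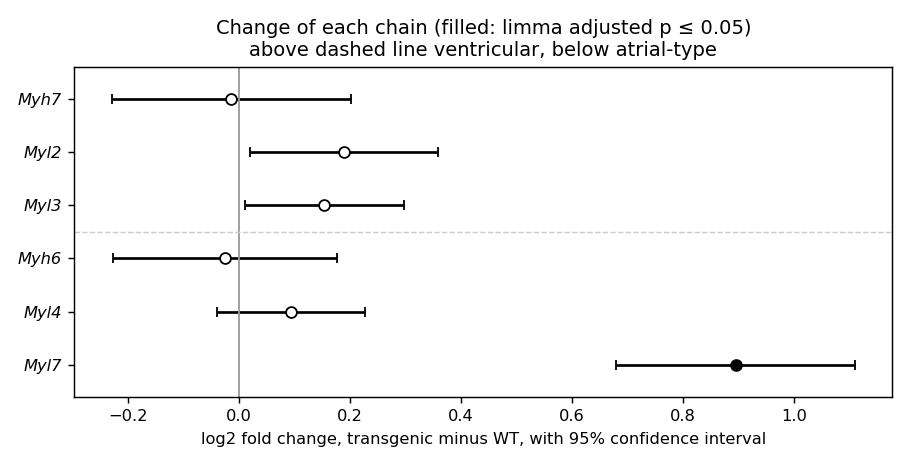
log2 fold change of each chain (horizontal axis, transgenic minus WT) with its 95% confidence interval from the limma fit, the ventricular chains above the dashed line and the atrial-type chains below it. *Myl7*, at 0.90, is the only filled point (adjusted p at or under 0.05), and the next highest is *Myl2* at 0.19.

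To compare atrial-type with ventricular chains without regard to how the libraries were scaled, the values of paired chains were divided within each pool. These are ratios of reads, not of molecules. The regulatory light chain ratio of *Myl7* to *Myl2* read 0.123, 0.147 and 0.115 (transgenic pools 1 to 3) and 0.0798 and 0.0766 (WT pools 1 and 2). All 3 transgenic ratios exceeded the WT ratios, with a difference in the mean log2 ratio of 0.71. Put as a share, *Myl7* made up 11.4% ± 1.33 (SD, n = 3) of the regulatory light chain values in transgenic hearts and 7.25% ± 0.20 (SD, n = 2) in WT hearts. The exact two-sided permutation p was 0.2, the smallest that 3 pools against 2 can give.

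The essential light chain ratio of *Myl4* to *Myl3* read 0.699, 0.696 and 0.714 (transgenic pools 1 to 3) and 0.713 and 0.752 (WT pools 1 and 2). The groups overlapped, and the mean log2 ratio differed by -0.06 (exact two-sided permutation p = 0.4). The heavy chain ratio of *Myh7* to *Myh6* read 3.93, 3.49 and 4.29 (transgenic pools 1 to 3) and 3.96 and 3.76 (WT pools 1 and 2). The WT ratios lay within the transgenic range, and the mean log2 ratio differed by 0.01 (exact two-sided permutation p = 1).

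*Myl7* was also set against the other atrial-type chains, a comparison chosen after its values were seen. Its ratio to *Myl4* read 0.486, 0.611 and 0.481 (transgenic pools 1 to 3) and 0.31 and 0.29 (WT pools 1 and 2). Its ratio to *Myh6* read 0.166, 0.205 and 0.189 (transgenic pools 1 to 3) and 0.102 and 0.0948 (WT pools 1 and 2). For both ratios the transgenic pools were above the WT pools, by 0.80 and 0.92 in the mean log2 ratio. Since *Myl7* had been seen to rise more than *Myl4* and *Myh6*, these ratios restate that rise and are not further tests of it. The exact two-sided permutation p was 0.2 for each, and 0.333 after Benjamini-Hochberg adjustment over the 5 ratios.

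**Figure D4:**
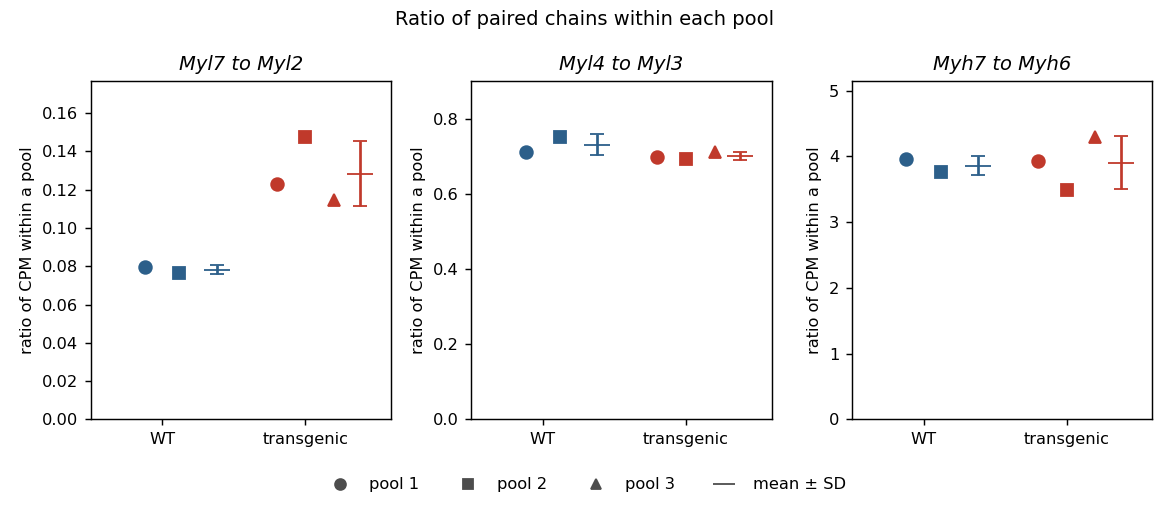
Ratio of the CPM values of paired chains within each pool (vertical axes, starting at 0), with the mean and SD of each genotype. The ratio of *Myl7* to *Myl2* is 0.115 to 0.147 in transgenic pools (red) and 0.0766 and 0.0798 in WT pools (blue), while the pools overlap for the other 2 ratios.

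Of 8 marker genes listed for atrial tissue, 0 have a symbol paired with an identifier here, so how much atrial tissue the pools still held was not tested. *Myh6* and *Myh7* encode closely similar proteins, and any reads that match both genes would have been apportioned by RSEM. How many reads did so was not tested, so the split between these 2 genes is uncertain. Whether the libraries kept the strand was not given in the sources used here. The long non-coding RNA *Mhrt*, an antisense transcript of the *Myh7* locus, overlaps *Myh7* in the annotation, and parts of *Cmtm5* (*Myh6*), *Ccdc63* (*Myl2*) and *Cdc27* (*Myl4*) overlap other members. No annotated gene overlaps *Myl7* or *Myl3*.

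Other genes of the thick filament, of the chambers and of the control of myosin genes were listed by symbol. The deposited values carry identifiers only, and symbols were available for the genes in the study's own list of changed genes and for the 6 chains. Genes could thus be matched only if the study had picked them from these same libraries, and the counts that follow are not independent evidence of a direction. Of 12 other myosin heavy chain genes, 2 could be matched, and 1 was called higher and 1 lower. Of 8 other myosin light chain genes, 0 could be matched. Of 18 genes for myosin partners, 1 could be matched, and it was lower.

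*Myh7b*, a further sarcomeric heavy chain gene of heart and slow muscle, rose and read 263, 302 and 273 CPM (transgenic pools 1 to 3) and 239 and 229.9 CPM (WT pools 1 and 2), a log2 fold change of 0.25 (limma adjusted p = 0.0443). *Myh11*, the smooth muscle heavy chain, fell and read 8.51, 6.76 and 9.0 CPM (transgenic pools 1 to 3) and 14.2 and 12.7 CPM (WT pools 1 and 2), a log2 fold change of -0.71 (limma adjusted p = 0.0204). *Mybpc1*, the slow form of myosin-binding protein C, fell, with a mean of 6.25 ± 1.70 CPM (SD, n = 3) against 12.1 ± 1.10 CPM in WT hearts (SD, n = 2; log2 fold change -0.93, limma adjusted p = 0.0157). The transgenic pools of all 3 genes were clear of the WT pools. *Tnni2*, the fast skeletal troponin I and the matched gene of 8 skeletal muscle markers, fell as well, from 18.6 ± 1.07 to 9.08 ± 1.5 CPM (log2 fold change -1.01, limma adjusted p = 0.00132).

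Of 13 other genes of the atrium, 2 could be matched, both also transcribed in ventricular trabeculae, and both fell. *Bmp10*, a ligand of the BMP family, had a log2 fold change of -1.18 (limma adjusted p = 0.000626), and *Gja5*, which encodes connexin 40, had one of -0.55 (limma adjusted p = 0.00494). *Myl7* rose over the same pools. *Bmp10* and *Gja5* were matched only because the study had picked them, so they do not show how atrial genes moved as a group. Of 8 other ventricular genes, 4 could be matched and all 4 were called higher, *Mycn* and *Hand1* close to the threshold. *Irx4*, a ventricular transcription factor, read 93.1, 95.7 and 85.9 CPM (transgenic pools 1 to 3) and 74.4 and 70.9 CPM (WT pools 1 and 2), a log2 fold change of 0.33 (limma adjusted p = 0.0134). The log2 fold changes of *Hey2*, *Mycn* and *Hand1* were 0.24, 0.34 and 0.50 (limma adjusted p = 0.0267, 0.0478 and 0.0463).

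Of 14 regulators of myosin genes, 6 could be matched, through 7 identifiers, of which 4 were called higher, 2 lower and 1 not called. *Tbx20* and *Tbx3*, T-box factors of chamber and conduction myocardium, had log2 fold changes of 0.41 and 0.69 (limma adjusted p = 0.00162 and 0.00547). *Gata4*, a zinc finger activator of cardiac genes, had one of 0.23 (limma adjusted p = 0.0411), and *Gata6* one of 0.21 (limma adjusted p = 0.0591, not called). *Myocd*, the coactivator of serum response factor, fell by 0.37 on the log2 scale (limma adjusted p = 0.0136). The identifiers of *Tead1* moved in opposite directions (log2 fold changes of -0.39 and 0.34, limma adjusted p = 0.00217 and 0.00824), and whether reads were split between them was not tested.

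Not all of these calls held when a pool was left out. Of the 15 identifiers called in these lists, 11, 9 and 15 were called without transgenic pools 1, 2 and 3, and 1 and 4 without WT pools 1 and 2, with all 15 in the same direction each time. Without the variance trend 0 of the 15 were called (limma adjusted p of at least 0.108), and DESeq2 called 8 of the 10 to which it gave an adjusted p (*Gja5* and *Mycn* were not called). *Mycn* was called in 4 of 12 other settings that used all pools, *Myh7b* in 8 of 12 and *Hand1* in 7 of the 11 that gave an adjusted p.

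**Figure D5:**
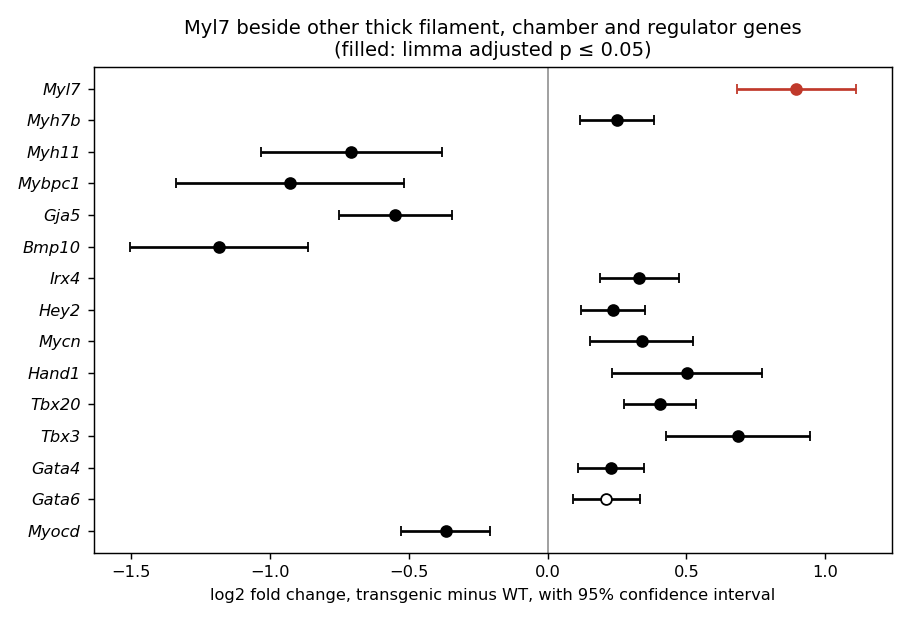
log2 fold change (horizontal axis, transgenic minus WT) with its 95% confidence interval for *Myl7* (red) and for genes of the other lists that the study had picked from these libraries. *Myl7* lies at 0.90, *Tbx3* at 0.69 and *Bmp10* at -1.18. *Bmp2* and *Tead1* are not drawn.

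The cell types behind the values could not be checked. A marker has a symbol here only if the study had picked it from these libraries. Markers that it did not pick are not seen, so the matched ones are given as a description. *Ryr2*, the matched gene of 8 cardiomyocyte markers, was lower in transgenic hearts (454.9 ± 27.9 against 552 ± 6.09 CPM, log2 fold change -0.28, limma adjusted p = 0.0175). *Kdr* and *Cdh5*, 2 of 5 endothelial markers, had log2 fold changes of -0.46 and -0.25 (limma adjusted p = 0.00286 and 0.0563, *Cdh5* not called). *Tbx18*, 1 of 4 epicardial markers, had one of 0.37 (limma adjusted p = 0.00476), and *Dcn*, 1 of 6 cushion mesenchyme markers, one of -0.22 (limma adjusted p = 0.0736, not called). *Cdh5* was called in 5 of 12 other settings that used all pools. *Ryr2*, *Kdr*, *Tbx18* and *Tnni2* were not called without WT pool 1, without WT pool 2 or without the variance trend (limma adjusted p from 0.0517 to 0.245). Of 6 red cell markers, 0 could be matched. The part of these shifts in the values of the myosin chains was not tested.

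The genes whose values followed *Myl7* most closely were sought among 10089 others with a mean of at least 10 CPM. The measure was the root mean square difference of log2 values, each centred on its mean, over the 5 pools. The nearest was *Ass1*, which encodes argininosuccinate synthase, with a difference of 0.06. It read 12.4, 15.2 and 11.9 CPM (transgenic pools 1 to 3) and 7.08 and 6.43 CPM (WT pools 1 and 2). *Smad6*, an inhibitory Smad of the BMP pathway, came next with 0.10, with transgenic values of 56.4, 65.7 and 49.9 CPM and WT values of 33.6 and 33.8 CPM. *Adamtsl2*, an extracellular matrix gene, followed with 0.12, with transgenic values of 32.5, 38.2 and 30.5 CPM and WT values of 20.7 and 20.4 CPM. The measure keeps the difference between genotypes, so it favours genes with a fold change like that of *Myl7*. The log2 fold changes of *Ass1*, *Smad6* and *Adamtsl2* were 0.91, 0.75 and 0.70 (limma adjusted p = 0.0032, 0.000626 and 0.00139). Whether they are regulated together with *Myl7* was not tested. The nearest genes of the other chains have no symbol here and are not named.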

How the data were processed

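RNA of E14.5 hearts without atria was analysed for 3 transgenic and 2 WT pools. Per the labels, the authors used cutadapt, Bowtie 0.12.9, RSEM 1.2.19 and edgeR 3.0.8 over GRCm38; the study's methods name other versions of cutadapt and RSEM. What the authors deposited are CPM values of 12857 genes, each divided by a library size they had scaled. Dividing a library by the worth of 1 read gave whole reads for 100% of genes (tolerance 0.02 reads). In transgenic pool 1 and WT pool 2 no gene was at 1 read (lowest 7 and 3), so the worth of 1 read rests on the spacing of values. The number of unused columns was 0. The comparison used limma 3.58.1 (R 4.3.3) on log2(CPM + 0.5), with a variance trend and without covariates. The filter, at least 1 CPM in at least 2 libraries, removed no gene. The adjusted p threshold was 0.05. edgeR 4.0.16 and DESeq2 1.42.0 were run on the recovered reads. Tests were tested on simulated data. Other pseudocounts, filters, scalings, a pool number block and leaving out each pool were tried. Ratios were tested by exact permutation (scipy 1.17.1).

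Named genes were the 6 chains, *Bmp2*, every gene past the threshold on the lists, and the 3 genes nearest each chain, of which only those nearest *Myl7* have a symbol. *Gata6* and the markers that missed the threshold were named after their values were seen. Members and lists were chosen with earlier results of these data known. *Nkx2-5* was not analysed here. Positions come from RefSeq for GRCm38.p6, matched by symbol for 6 of 6 chains. Protein, promoter and length comparisons were not run.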

Additional observations from a re-analysis of the deposited data

How the results depend on the processing

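*Myl7* was higher in transgenic hearts in all 12 other settings that used every pool (log2 fold change 0.88 to 0.91) and was called in 11 of them. The exception was limma without the variance trend (0.90, adjusted p = 0.152), and the adjusted p ranged down to 1.59e-12 with edgeR's exact test. These settings are not independent. The filter removed no gene, so the fit without it repeats the main fit. The edgeR quasi-likelihood test gave the same adjusted p (0.000242) under either scaling of the libraries. Counts of settings leave out the fit with the pool number as a block, which also used every pool. With each pool left out its log2 fold change was 0.74 to 0.99. *Myl2* was called at 0.17 with quantile normalization and at 0.19 with DESeq2, and at 0.14 to 0.22 with each pool left out it was not. *Myh6* and *Myh7* ranged from -0.11 to 0.083 and from -0.049 to 0.024 with each pool left out. Without transgenic pool 3 both changed sign (0.083 and 0.024), as *Myh6* did without WT pool 2 (0.0050). The fit with the pool number as a replicate block gives the same values by construction, since transgenic pool 3 has no WT pool of its number. *Myl3* and *Myl4* kept their direction without a call in all settings. The log2 ratio of *Myh7* to *Myh6* ranged from -0.059 to 0.090 with each pool left out, changing sign without transgenic pool 3 and without WT pool 2, and that of *Myl7* to *Myl2* from 0.60 to 0.78. The cause of the other differences was not tested.

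Over all genes, 362 were called, against 10 without the variance trend, 232 with DESeq2 and 655 with the replicate block. With each pool left out the number ran from 43 to 464: it was 226 without transgenic pool 2, and 45 and 43 without WT pools 1 and 2, where the lone WT pool is assumed to vary like the transgenic pools. Pool numbers are shared by only 2 pairs of pools, whose deviations from their group means had correlations of -0.0259 and -0.0499 over genes, so the block pairs samples by number only. It changed no call among the 6 chains. Ratios per length were not run, since no lengths were used here. The chains rested on at least 2785 reads in each pool, and the number of pools limits their precision.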
